A study of Mus musculus with 6 samples.

Results

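The Slc25 carriers are the proteins that move metabolites, nucleotides and ions across the inner mitochondrial membrane, and their genes were taken from the deposited count table as every protein-coding gene whose symbol begins with Slc25a followed by a digit. The rule found 47 genes of the 56748 in the table, and it used no measured value. The RNA-seq libraries came from 6 hearts, 3 of them Pontin cTG and 3 WT, with 1 heart in each library. In Pontin cTG the mouse αMHC promoter, a cardiomyocyte promoter, drives a human Pontin cDNA with a flag tag, and WT are littermates without this transgene. Both groups were male, adult and on the C57Bl/6 background per the study's methods, and both received angiotensin II (Ang-II), a hormone that raises blood pressure and loads the heart, delivered over 14 days from a mini-osmotic pump at a daily dose of 1.5 mg per kg body weight. No library without Ang-II was analysed here, so the values compare genotypes under Ang-II and say nothing of the infusion itself.

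Mitochondrial carriers share a fold made of repeated membrane-spanning segments, and they open in turn to the cytosol and to the matrix. In cardiomyocytes, which are rich in mitochondria, the ADP/ATP carriers return ATP to the contractile apparatus, the phosphate carrier brings in phosphate for ATP synthesis, and other members shuttle malate, aspartate, acylcarnitines, cofactors and iron. Several members occur as pairs of close relatives with the same substrate, one of which usually prevails in a given tissue.

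Total counts of the WT libraries lay between 12436822 and 13194038, and those of the Pontin cTG libraries between 14584102 and 16888124, with no overlap between the groups. Pontin cTG replicate 2 stood apart on the first principal component of all tested genes, which held 47.4% of the variance, at 52.8 against -25.3 to 17.6 in the other 5 libraries. The study's methods mention leaving out an outlier found by such an analysis, without naming the library or the experiment. That mention stands beside the comparison of Pontin knockout hearts, a separate experiment of the study. For the comparison used here, the study's figure legend gives as many mice per group as there are libraries. None of these libraries therefore appears to have been left out by the study. All 6 libraries were kept here. In Pontin cTG replicate 2 the summed level of the 5 atrial cardiomyocyte markers was 551 CPM (counts scaled to a common library size) against 27.5 to 132 in the others. Nearly all of it came from Nppa, the atrial natriuretic peptide gene that loaded ventricles also express, while Sln and Bmp10 had at most 1 count in any library. All 10 cardiomyocyte markers passed the filter on low counts in these hearts, and their sums overlapped between the groups. Ruvbl1, the mouse Pontin gene, had normalised counts of 216, 221 and 217 in WT and 250, 250 and 240 in Pontin cTG, a log2 fold change of 0.18 (SE 0.12, n = 3 per group). The transgene is a human cDNA, and how many of its reads align to the mouse gene was not tested.

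The ADP/ATP carriers Slc25a4 (ANT1) and Slc25a5 (ANT2) are shown by a stretch of their coding sequence, because much of what follows depends on telling these paralogs apart in short reads. Both stretches are coding bases 220 to 309, counted from the start codon, in exon 2 of 4. Slc25a4 lies on the minus strand at chr8:46209311-46209400 and Slc25a5 on the plus strand at chrX:36796951-36797040, in GRCm38 with GENCODE M21 transcripts. Capitals mark the 14 of 90 bases that differ.
Slc25a4: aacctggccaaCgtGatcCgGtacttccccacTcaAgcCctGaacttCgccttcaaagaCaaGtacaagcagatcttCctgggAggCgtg
Slc25a5: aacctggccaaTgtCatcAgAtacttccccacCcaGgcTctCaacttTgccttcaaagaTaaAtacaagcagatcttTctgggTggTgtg
Over the whole coding sequence, 692 of 894 aligned bases were identical (77.4%), and the longest identical run was 20 bases. No word of 50 bases in the principal Slc25a4 transcript occurred in a transcript of another gene. In Slc25a5, 46.6% of such words did, and 12.0% of its words of 100 bases did. The words of 50 bases were shared with 9 genes, which were Slc25a5-ps and loci with Gm numbers, and with no other carrier of the list. The count of Slc25a5 is therefore less certain than that of Slc25a4. Of the tested members, 8 shared over 5% of their words of 100 bases with other genes. Slc25a37 (6.94%) and Slc25a40 (7.37%) were among them, while their relatives Slc25a28 and Slc25a39 shared 0%. Slc25a11, the oxoglutarate carrier, overlaps Rnf167 on the opposite strand, with 45194 and 3172 counts over all libraries. In the same way Slc25a26 (2387 counts) overlaps Lrig1 (3571), and Slc25a25 (758) overlaps Naif1 (422). Some other members also overlap genes on the opposite strand. Whether the counting used strand is not given in the sources used here.

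Slc25a4 was by far the most abundant carrier transcript. Levels are given in CPM per kilobase of gene length (normalised CPM, so the scale of RPKM), with the length taken from the table, and as the mean of the 6 libraries. Slc25a4 stood at 1922, which was 66.0% of the summed level of the tested carriers and rank 8 among 21957 nuclear protein-coding genes. Slc25a11 came next at 250.1, the phosphate carrier Slc25a3 at 231 and Slc25a5 at 152. The level of Slc25a4 was 7.69-fold that of Slc25a11, whereas Slc25a11 and Slc25a3 lay close together (SD 26.7 and 13.6, n = 6). Slc25a11 was below Slc25a3 only in Pontin cTG replicate 2, at 217 against 220. These 4 genes together held 87.7% of the summed level.

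Below them came Slc25a34, a carrier of unassigned substrate, at 62.1. Slc25a39, which takes up glutathione, stood at 40.7, and Slc25a20, the carnitine-acylcarnitine carrier, at 39.3. The aspartate-glutamate carriers Slc25a13 and Slc25a12 stood at 38.6 and 32.8. Slc25a39, Slc25a20 and Slc25a13 did not differ beyond their spread, and Slc25a12 lay below Slc25a13 in every library, at ratios from 0.771 to 0.906. A level of at least 10 was found for 12 members, and 27 tested members lay below it, down to 0.189 for Slc25a53. The order depends on the length used: per kilobase of the principal transcript, Slc25a3 moved to 795 and the second place, Slc25a20 to 107 and the fifth, and Slc25a4 stayed first at 2350 with 55.9% of the sum.

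**Figure D1:**
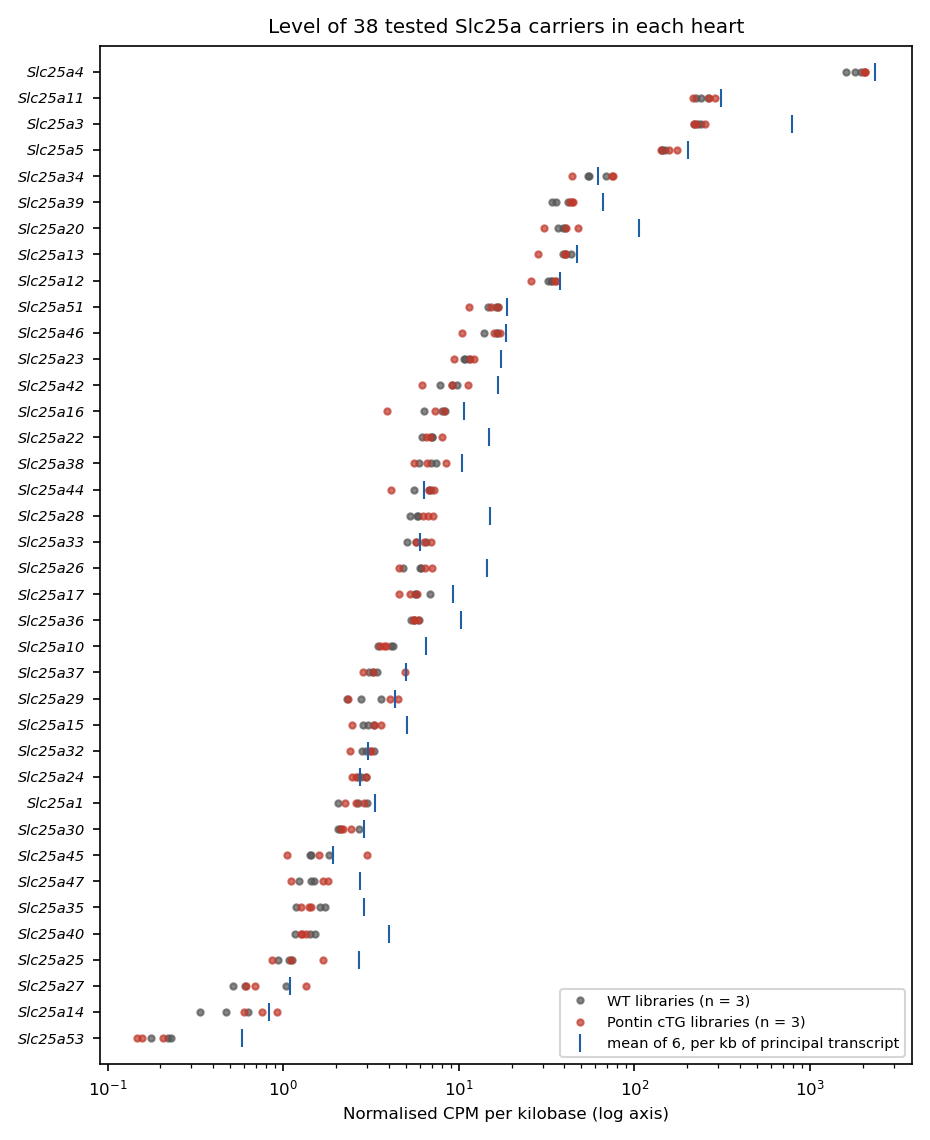
Level of each of 38 tested carriers in each library, in normalised CPM per kilobase on a log axis, ordered by the mean; grey points are the 3 WT and red points the 3 Pontin cTG libraries, and the blue tick is the mean of 6 per kilobase of the principal transcript. Slc25a4 stands alone at the top, 3 members follow above 100, and the groups lie over each other for most carriers.

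The other members, 8 in number, did not pass the filter on low counts. Slc25a31, the ADP/ATP carrier of the testis, had 25 counts over all 6 libraries, Slc25a43 and Slc25a18 had 10 each, Slc25a2 had 8 and Slc25a21 had 1. Slc25a41, Slc25a48 and Slc25a54 had 0. A count of 0 does not show that a transcript is absent at this depth.

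No carrier differed between Pontin cTG and WT hearts by the test. Of the 39 tested members, 0 were called at an adjusted p under 0.05 by the quasi-likelihood test of edgeR, with p adjusted by Benjamini-Hochberg over all 13888 genes tested, against 0% of all genes. At an unadjusted p under 0.05 there were also 0 members, against 2.05% of all genes (1.02% higher and 1.03% lower in Pontin cTG), and DESeq2 found 0 members by either threshold. The smallest unadjusted p among the members was 0.073, for Slc25a28, and every adjusted p was 0.999. The log2 fold change was above 0 for 23 members and below 0 for 16, which is 59.0% against 50.2% of all genes. Its median was 0.026 (0.0013 over all genes), and the values ran from -0.29 for Slc25a53 to 0.67 for Slc25a14. Among the 8 most abundant members, the 95% intervals of the fold between genotypes lay within 0.679 and 1.52, so larger changes of these are outside the intervals. Groups of 3 allow an exact permutation test no p below 0.1.

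**Figure D2:**
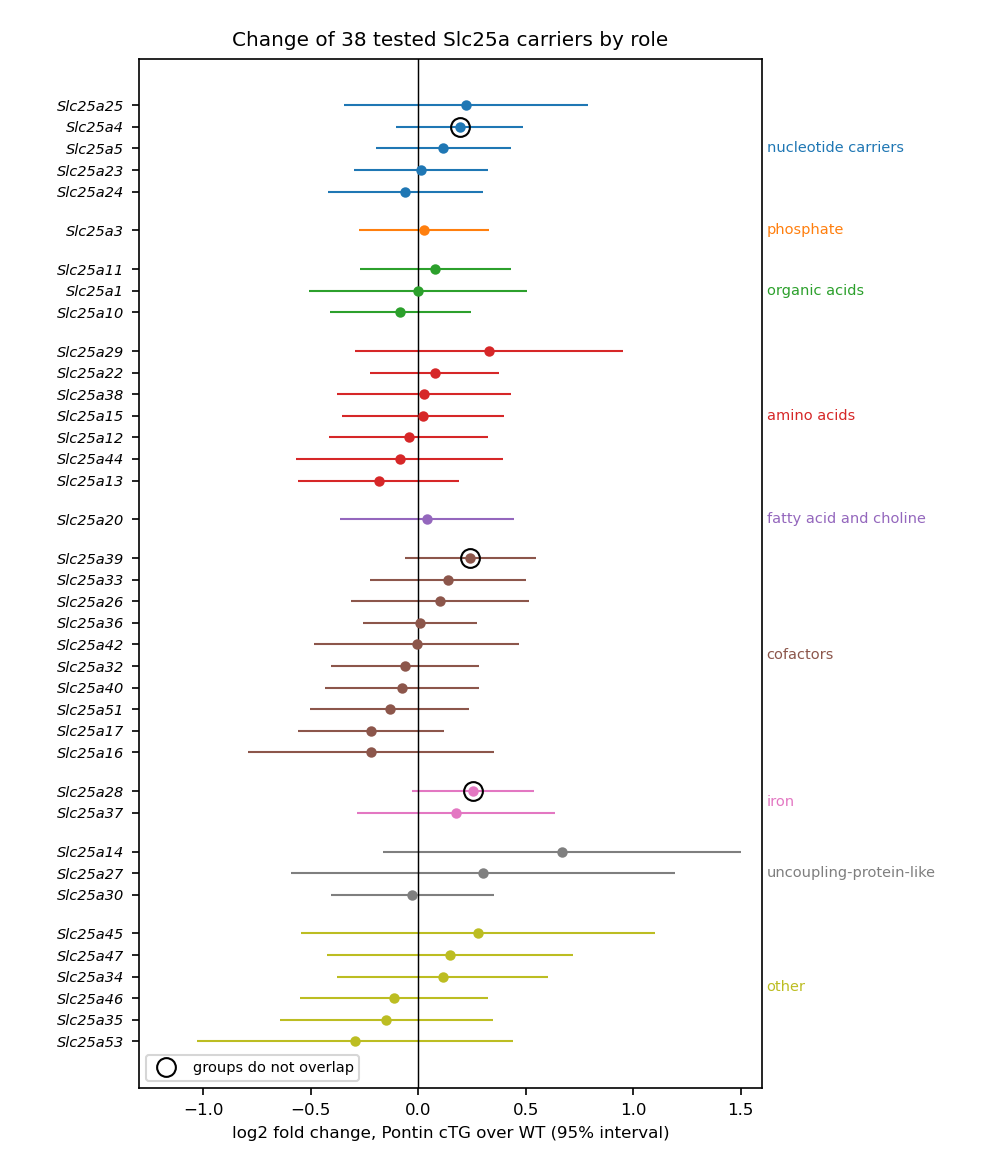
log2 fold change of Pontin cTG over WT for 38 tested carriers with its 95% interval from edgeR's quasi-likelihood fit (n = 3 per group), coloured by role; black circles mark the 3 members whose groups do not overlap. Every interval includes 0.

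The 3 Pontin cTG libraries all lay above the 3 WT libraries for 3 members (7.69%), against 4.7% of all genes in that direction, and all below them for 0 members, against 3.63%. In either direction together, groups did not overlap for 8.33% of all genes. Slc25a4, Slc25a39 and Slc25a28 were these 3 members, each with a different role. The total counts of the libraries separated the genotypes in the same way. Of the 9 lists of cell type markers, the 5 skeletal muscle markers alone did so as a sum, with summed levels of 0.637 to 1.25 CPM in WT and 1.32 to 1.58 in Pontin cTG and with Myh1 and Myh4 at 0 counts, and the part of either in these values was not tested. The 10 cardiomyocyte markers went both ways, with log2 fold changes above 0 for 4 and below 0 for 6. Their median was -0.076 and their lowest value -0.34, for Ryr2. Single cardiomyocyte markers separated the genotypes too. The sarcomere genes Myl2, Myl3 and Tnni3 had all Pontin cTG libraries above all WT libraries, at log2 fold changes of 0.24, 0.23 and 0.30. Actc1 had all of them below, at -0.11. None of these 4 was called, and their part in the carriers' values was not tested.

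Among the nucleotide carriers, Slc25a4 had normalised counts of 60118, 53148 and 65167 in WT and of 68408, 67599 and 67893 in Pontin cTG. The Pontin cTG hearts were close to each other (SD 409.5) and the WT hearts further apart (SD 6035), with WT replicate 2 the lowest. The log2 fold change was 0.19 (SE 0.13, unadjusted p = 0.175 by edgeR's quasi-likelihood test). Leaving out the low WT heart (replicate 2) gave 0.12, and leaving out Pontin cTG replicate 2 gave 0.20. As a share of all counts in a library, Slc25a4 made up 0.417% ± 0.0378 in WT and 0.487% ± 0.0269 in Pontin cTG (SD, n = 3). The 47 carriers together made up 0.770% ± 0.0465 and 0.854% ± 0.0113, again with no overlap (exact permutation p = 0.1, two-sided, the smallest possible). The summed level per kilobase of all members overlapped, at 2768 ± 221 and 3062 ± 95.1 (exact permutation p = 0.2, two-sided). Without Slc25a4 the shares of counts were 0.353% ± 0.00886 and 0.367% ± 0.0157, and the groups overlapped.

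Slc25a5 had normalised counts of 3325, 3449 and 3350 in WT and 3647, 4061 and 3274 in Pontin cTG. The groups overlapped, and Pontin cTG replicate 2 was the highest (log2 fold change 0.12, SE 0.14). The level ratio of Slc25a4 to Slc25a5 was 12.3 ± 1.44 in WT and 13.1 ± 1.43 in Pontin cTG (SD, n = 3), a difference within the spread (exact permutation p = 0.6, two-sided, adjusted p = 0.8 over 8 ratios of relatives). The ATP-Mg/phosphate carriers Slc25a23, Slc25a24 and Slc25a25, which set the adenine nucleotide content of the matrix, had log2 fold changes of 0.012, -0.061 and 0.22. Their SEs were 0.14, 0.16 and 0.25.

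The phosphate carrier Slc25a3 had normalised counts of 18736, 17002 and 17926 in WT and 17633, 17192 and 19828 in Pontin cTG, and the groups overlapped (log2 fold change 0.026, SE 0.13). Slc25a11, which exchanges oxoglutarate for malate in the malate-aspartate shuttle, had 7178, 6748 and 7854 in WT and 7967, 6488 and 8573 in Pontin cTG. Its lowest value was in Pontin cTG replicate 2 and its highest in replicate 3 (log2 fold change 0.080, SE 0.15). The citrate carrier Slc25a1 and the dicarboxylate carrier Slc25a10 had log2 fold changes of -0.0013 and -0.082.

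The other arm of the malate-aspartate shuttle is carried by Slc25a12 (aralar) and Slc25a13 (citrin). Slc25a12 had normalised counts of 3333, 3465 and 3526 in WT and 3688, 2658 and 3663 in Pontin cTG. Slc25a13 had 2096, 2324 and 2173 in WT and 2142, 1518 and 2147 in Pontin cTG. Pontin cTG replicate 2 was the lowest of the 6 libraries for both, while the other Pontin cTG hearts lay above every WT heart for Slc25a12 and among them for Slc25a13. The log2 fold changes were -0.045 (SE 0.16) and -0.18 (SE 0.17). The ratio of Slc25a12 to Slc25a13 was 0.811 ± 0.0355 in WT and 0.893 ± 0.0117 in Pontin cTG, with all Pontin cTG libraries above all WT libraries (exact permutation p = 0.1, two-sided, adjusted p = 0.8 over 8 ratios). The other amino acid carriers included Slc25a22 for glutamate, Slc25a38 for glycine, Slc25a15 for ornithine, Slc25a44 for branched-chain amino acids and Slc25a29 for basic amino acids. Their log2 fold changes were 0.076, 0.027, 0.021, -0.085 and 0.33, and the groups of each overlapped.

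Slc25a20 brings acylcarnitines to the matrix for fatty acid oxidation, the main fuel of the adult heart. Its normalised counts were 2503, 2747 and 2680 in WT and 2784, 2088 and 3281 in Pontin cTG. The Pontin cTG hearts held both the lowest and the highest value (log2 fold change 0.040, SE 0.18).

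Of the 11 cofactor carriers, 5 had log2 fold changes above 0 and 6 below it. Slc25a39 had normalised counts of 1397, 1312 and 1629 in WT and 1740, 1681 and 1711 in Pontin cTG. Every Pontin cTG heart lay above every WT heart, by a small margin over WT replicate 3 (log2 fold change 0.24, SE 0.13, unadjusted p = 0.105 by edgeR's quasi-likelihood test). Its relative Slc25a40 had 169, 181 and 138 in WT and 152, 149 and 160.3 in Pontin cTG. The groups of Slc25a40 overlapped (log2 fold change -0.076, SE 0.16), and so did the ratio of Slc25a39 to Slc25a40, at 27.8 ± 7.31 and 33.9 ± 1.21 (exact permutation p = 0.4, two-sided).

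Slc25a17, a peroxisomal carrier of coenzyme A and related nucleotides, had normalised counts of 227, 275 and 230.3 in WT and 184, 231 and 213 in Pontin cTG. Its groups overlapped through Pontin cTG replicate 2 (log2 fold change -0.22, SE 0.15). Slc25a16, linked to coenzyme A in the matrix, had 544, 427 and 562 in WT and 497, 265 and 554 in Pontin cTG. Here Pontin cTG replicate 2 alone lay below the WT range, and the log2 fold change of -0.22 (SE 0.25) became 0.041 without it. Other cofactor carriers were Slc25a33 and Slc25a36 for pyrimidine nucleotides at 0.14 and 0.010, Slc25a26 for S-adenosylmethionine at 0.10, Slc25a42 for coenzyme A at -0.0076, Slc25a32 for folate or flavin at -0.060 and Slc25a51 for NAD at -0.13, all as log2 fold changes.

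The mitoferrins import iron for haem and iron-sulphur cluster synthesis, Slc25a37 (mitoferrin 1) chiefly in erythroid cells and Slc25a28 (mitoferrin 2) in most tissues. Slc25a28 had normalised counts of 278, 308 and 305 in WT and 329, 378 and 355 in Pontin cTG. The groups did not overlap (log2 fold change 0.25, SE 0.13, unadjusted p = 0.073 by edgeR's quasi-likelihood test). Slc25a37 had 274, 292 and 263 in WT and 276, 419 and 241 in Pontin cTG. Pontin cTG replicate 2 alone was high, and the log2 fold change of 0.18 (SE 0.20) became -0.096 without it. The 5 erythroid markers summed to between 936 and 1586 CPM in the WT hearts and between 830.2 and 1506 in the Pontin cTG hearts, with 1380 in Pontin cTG replicate 2.

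**Figure D3:**
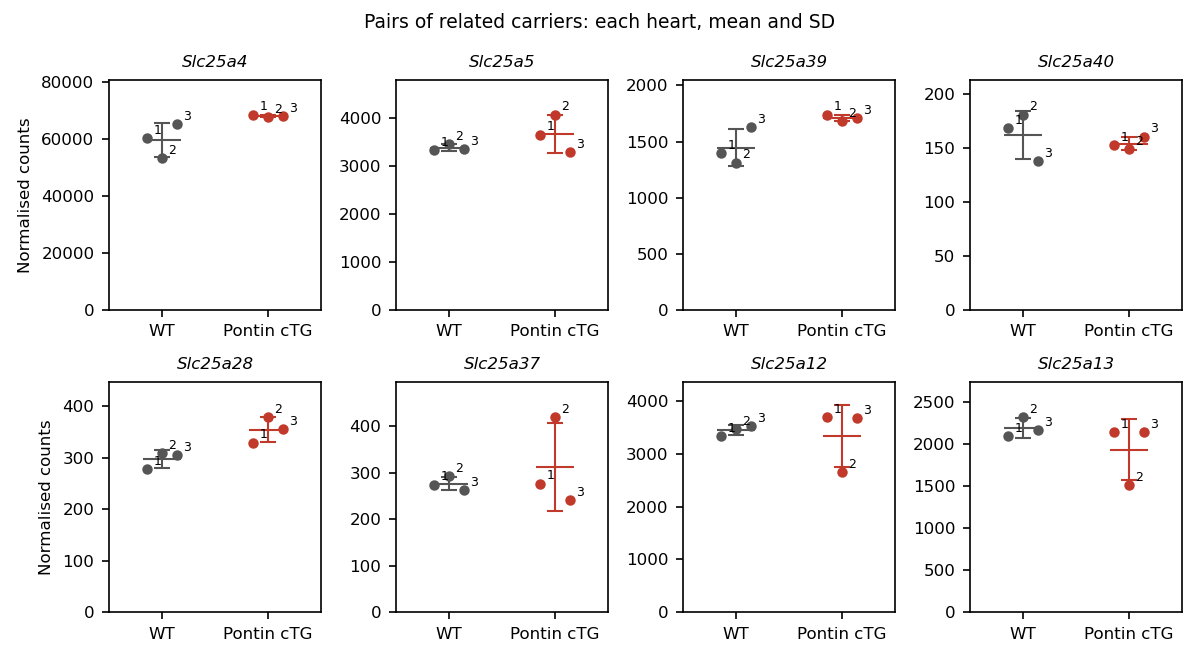
Normalised counts of 4 pairs of related carriers in each heart, with the replicate number at each point, the group mean as a bar and the SD as whiskers (n = 3 per group), on axes from 0. Slc25a4, Slc25a39 and Slc25a28 have no overlap between WT and Pontin cTG, their relatives Slc25a5, Slc25a40 and Slc25a37 overlap, and Pontin cTG replicate 2 lies low for Slc25a12 and Slc25a13.

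Slc25a14, Slc25a27 and Slc25a30 resemble uncoupling proteins, which let protons or anions pass without ATP synthesis. Slc25a14 had the largest log2 fold change of the tested members and few counts, with normalised counts of 20.9, 15.7 and 11.2 in WT and 25.4, 30.8 and 19.9 in Pontin cTG. The groups overlapped, and the log2 fold change of 0.67 had an SE of 0.37. Slc25a27 was at 0.30 (SE 0.39) and Slc25a30 at -0.027 (SE 0.17).

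Among members of other or unassigned substrate, Slc25a34 had normalised counts of 2088, 2056 and 2585 in WT and 2828, 1662 and 2789 in Pontin cTG. Pontin cTG replicate 2 was the lowest of the 6 libraries and the other Pontin cTG hearts the highest (log2 fold change 0.11, SE 0.22). Slc25a53, the least abundant tested member, had 19.8, 24.7 and 25.7 in WT and 17.6, 23.1 and 16.5 in Pontin cTG, and the groups overlapped (log2 fold change -0.29, SE 0.33). Slc25a35, Slc25a45, Slc25a46 and Slc25a47 had log2 fold changes of -0.15, 0.28, -0.11 and 0.15.

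One Pontin cTG heart set much of the spread. Pontin cTG replicate 2 was the lowest of the 6 libraries for 15 of the 39 tested members (38.5%), against 30.8% of all genes, and the highest for 9 (23.1%), against 30.1%. The 15 low members had many different roles, and Slc25a11, Slc25a12, Slc25a13, Slc25a20 and Slc25a34 were the most abundant of them. The 9 high members included both mitoferrins and Slc25a5. Slc25a4 and Slc25a39 were at neither end in this library. The summed level of the 6 endothelial markers was 1187 CPM there against 794 to 928 in the other 5 libraries, and that of the 5 adipocyte markers was 667 CPM against 419.8 to 467, beside the atrial markers given above. Most of the adipocyte sum came from Fabp4, with 10420 counts in Pontin cTG replicate 2 against 547 for Cidea. The adipocyte markers Adipoq and Plin1 had at most 3 counts in any library and Ucp1 had 0. The part of these lists in these values was not tested. The SD of log2 counts was larger in Pontin cTG than in WT for 28 of 39 members (71.8%), against 69.7% of all genes. WT replicate 2 was the lowest library for 9 members (23.1%), Slc25a4 and Slc25a39 among them, against 15.3% of all genes. The median deviation of the members was -0.0998 in WT replicate 2 and -0.0799 in Pontin cTG replicate 2, against 0.0329 to 0.0812 in the other libraries. Without WT replicate 2, the log2 fold change of Slc25a39 was 0.18.

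**Figure D4:**
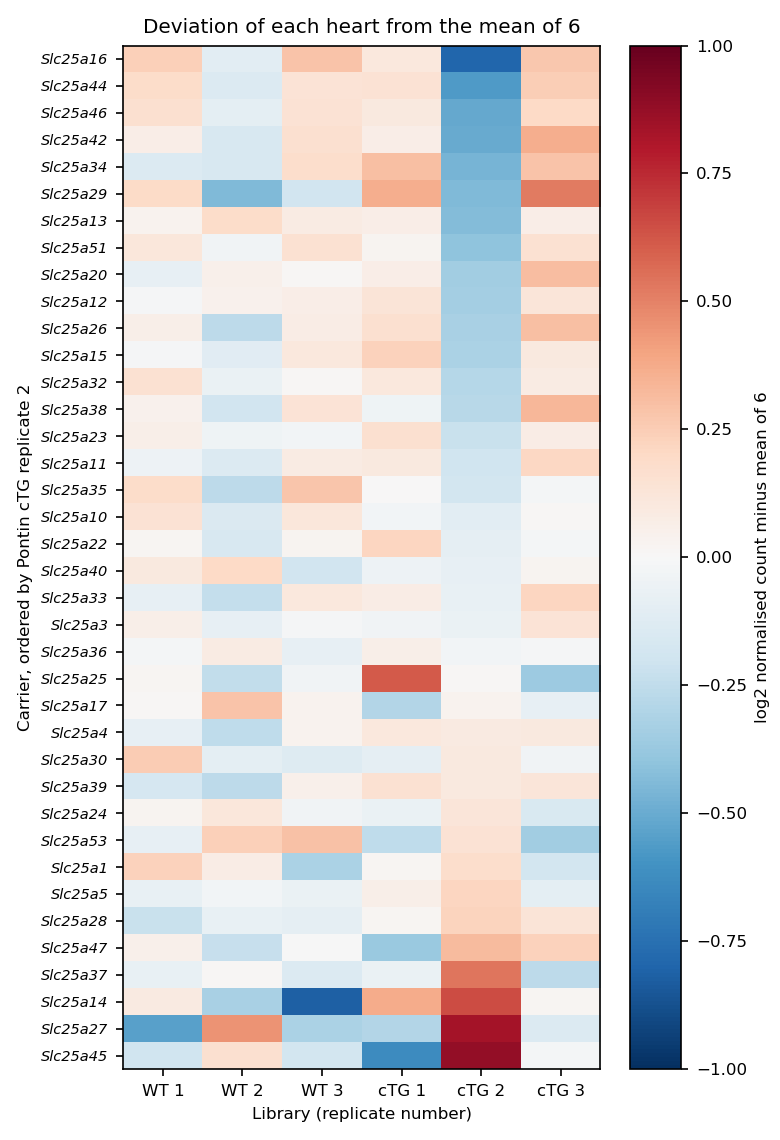
Difference of each library's log2 normalised count from the mean of the 6 libraries, for 38 tested carriers (rows, ordered by Pontin cTG replicate 2) and the 6 libraries (columns); red is above and blue below the mean, with the scale cut at 1 on the log2 scale. Pontin cTG replicate 2 is lowest for 15 rows and highest for 8.

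When Pontin cTG replicate 2 was left out, log2 fold changes were above 0 for 27 members and below 0 for 12. Their median was 0.077, against -0.0049 over all genes. The sign differed from the fit with all libraries for 10 members. The log2 fold change moved by more than 0.2 for 8 members. Slc25a34 stood at 0.33 (unadjusted p = 0.0228) and Slc25a29 at 0.57 (unadjusted p = 0.0164) by edgeR's quasi-likelihood test, and neither passed the adjusted threshold. These were 2 of 39 members at an unadjusted p under 0.05, beside 686 of all 13978 genes tested in this fit. With all libraries it was 285 of 13888 genes. Slc25a4 stood at 0.20, Slc25a39 at 0.25 and Slc25a28 at 0.20. Among the other abundant members, Slc25a5 went from 0.12 to 0.037, Slc25a13 from -0.18 to -0.035, Slc25a11 from 0.080 to 0.19, Slc25a12 from -0.045 to 0.095 and Slc25a20 from 0.040 to 0.20.

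**Figure D5:**
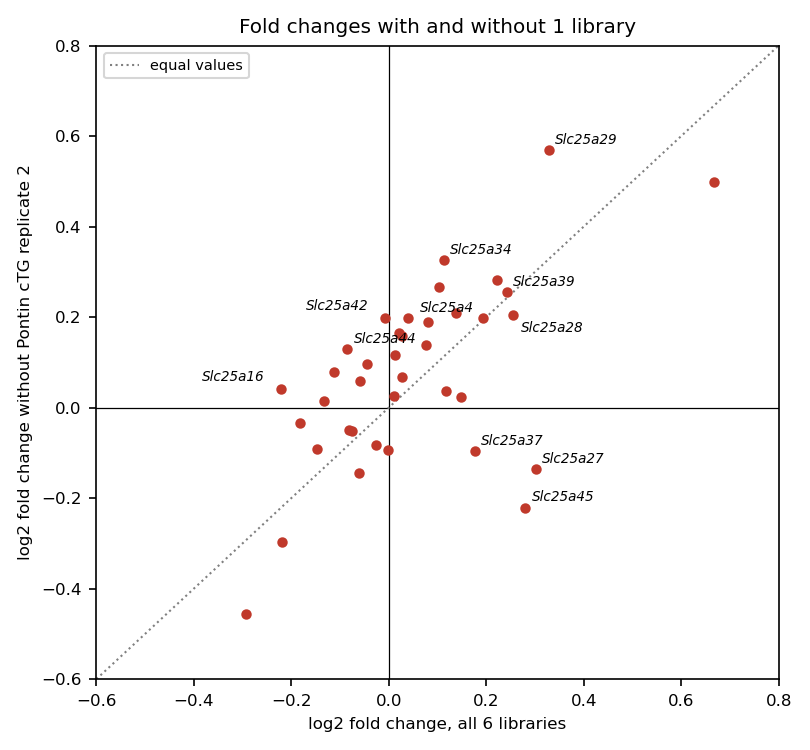
log2 fold change of each of 38 tested carriers with all 6 libraries (horizontal axis) and without Pontin cTG replicate 2 (vertical axis), with a dotted line of equal values; labelled points moved by more than 0.2 or had no overlap between groups. Slc25a4, Slc25a39 and Slc25a28 lie near the line, and Slc25a37, Slc25a27 and Slc25a45 lie below 0 without that library.

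Fold changes also varied with gene length. Over the tested members, the Spearman correlation of log2 fold change with gene length was -0.36, against -0.31 over all genes; members share the libraries, so this is a description. Within libraries, the correlation of a gene's deviation with its length lay between 0.107 and 0.181 for WT and between -0.204 and 0.082 for Pontin cTG, with no overlap. With this trend removed, the log2 fold change went from 0.19 to 0.12 for Slc25a4, from 0.24 to 0.19 for Slc25a39 and from 0.25 to 0.23 for Slc25a28. It went from 0.12 to 0.015 for Slc25a5, from 0.080 to 0.0035 for Slc25a11 and from 0.14 to 0.050 for Slc25a33. The part of this trend in the values was not tested further.

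Mtch1, Mtch2, Ucp1, Ucp2 and Ucp3 belong to the same family under other symbols. Mtch1, an outer-membrane member, had normalised counts of 1735 ± 77.7 in WT and 2065 ± 143 in Pontin cTG (SD, n = 3), with no overlap (log2 fold change 0.25, unadjusted p = 0.0832 by edgeR's quasi-likelihood test). Mtch2 was at 0.065, Ucp2 at 0.014 and Ucp3 at -0.19, and Ucp1, the uncoupling protein of brown fat, had 0 counts in every library. Of 35 table entries for other mitochondrial transport genes, 34 were tested and 0 were called, with 20 above and 14 below 0 and a median log2 fold change of 0.059. Among them, Mpc2, a subunit of the pyruvate carrier, and Ckmt2, the mitochondrial creatine kinase, had all Pontin cTG libraries above all WT libraries (0.28 and 0.10). Cpt1a, which makes acylcarnitines, had all of them below (-0.22).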

How the data were processed

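The authors deposited 1 table of whole-number counts per gene for the 6 libraries, not normalised. The study's methods name Trimmomatic, STAR, mm10 and Gencode M25, whereas the submitters' processing notes name fastp, HISAT2, featureCounts, DESeq2 and GRCm39. Which of these tools made the table is not settled. The table's coordinates equalled those of GENCODE M21 (GRCm38, the build also called mm10) for only 1435 of 52073 shared genes. Most coordinates of the table are thus not those of that build. Positions given here come from GENCODE M21, matched by gene identifier. All sample columns were matched by the names in the labels.

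Genes were filtered with filterByExpr (minimum count 10), scaled by TMM and tested with edgeR 4.0.16 in R 4.3.3 (quasi-likelihood, no block). DESeq2 1.42.0, limma 3.58.1 and other alternatives were run, and each tool was checked on simulated counts. Ratios and summed levels had exact permutation tests. Normalised counts are counts over TMM-scaled library size, on a common scale. Members and gene lists were chosen with earlier results of these data known. Full values are given for 14 members, chosen by level, by p in each direction, by lack of overlap or as core heart carriers. Replicates were separate hearts. The individual values of some tested genes are not reported here; they remain in the counts, medians and sums.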

Additional observations from a re-analysis of the deposited data

How the results depend on the processing

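No carrier passed an adjusted p of 0.05, or of 0.1, in any of the 16 alternatives, where the smallest adjusted p was 0.855. Over all genes, DESeq2 called 1 gene, the fit with no filter on low counts 3, limma-voom with quality weights 3, and leaving out 1 library 0 to 3. Members at an unadjusted p under 0.05 numbered 2 of 39 with limma-voom (Slc25a34 and Slc25a39), beside 794 of all 13888 genes. They numbered 0 to 2 of 39 when 1 library was left out, beside 122 to 686 of all genes tested. The median log2 fold change ran from -0.012 to 0.077, and the members above 0 from 17 to 27, over the fits without 1 library. The log2 difference of the Slc25a4 to Slc25a5 ratio, 0.086 with all libraries, ran from -0.0090 (without WT replicate 2) to 0.17. The sign was kept in every alternative by 14 members, among them Slc25a4, Slc25a39, Slc25a28, Slc25a5, Slc25a13 and Slc25a14, though values moved: over the fits without 1 library Slc25a5 ran from 0.037 to 0.19 and Slc25a13 from -0.26 to -0.035, both nearest 0 without Pontin cTG replicate 2.

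When some library was left out, 24 members changed sign. The ranges of the log2 fold change over those fits were Slc25a1 -0.13 to 0.13, Slc25a11 -0.0061 to 0.19, Slc25a12 -0.12 to 0.095, Slc25a15 -0.085 to 0.16, Slc25a16 -0.43 to 0.041, Slc25a20 -0.12 to 0.20, Slc25a22 -0.011 to 0.14, Slc25a23 -0.060 to 0.12, Slc25a25 -0.074 to 0.42, Slc25a26 -0.030 to 0.27, Slc25a27 -0.14 to 0.65, Slc25a3 -0.039 to 0.067, Slc25a30 -0.087 to 0.11, Slc25a32 -0.12 to 0.058, Slc25a34 -0.0054 to 0.33, Slc25a36 -0.019 to 0.056, Slc25a37 -0.096 to 0.33, Slc25a38 -0.15 to 0.16, Slc25a40 -0.17 to 0.0070, Slc25a42 -0.22 to 0.20, Slc25a44 -0.24 to 0.13, Slc25a45 -0.22 to 0.57, Slc25a46 -0.25 to 0.077, Slc25a51 -0.25 to 0.014. Signs also changed for Slc25a42 (0.0090), Slc25a30 (0.0090) and Slc25a1 (0.036) under scaling by library size alone, for Slc25a1 with at least 10 counts in every library (0.0087) and with protein-coding genes only (0.0017), and with limma-voom for Slc25a3 (-0.0011), Slc25a12 (0.081), Slc25a42 (0.058), Slc25a37 (-0.0067), Slc25a45 (-0.16) and Slc25a47 (-0.12). With the length trend removed, an alternative chosen after seeing the data, they changed for Slc25a12 (0.015), Slc25a42 (0.025), Slc25a38 (-0.027) and Slc25a40 (0.0081). The cause of these changes was not tested.

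The labels do not tie same-numbered libraries to each other. Their deviations from the group means had correlations of 0.063, 0.426 and 0.183 for replicates 1, 2 and 3. Correlations between differently numbered libraries were not computed, so these values cannot show whether the replicate numbers pair the samples. With the replicate block, 0 genes passed the adjusted threshold and 499 an unadjusted p under 0.05, against 285 without it, 24 members lay above 0, and Slc25a1 changed sign (0.0068). Precision was lowest for Slc25a27, Slc25a14, Slc25a45 and Slc25a53, with SEs of 0.39, 0.37, 0.36 and 0.33 on 273, 128, 413 and 127 counts in all. Of these, Slc25a27 and Slc25a45 were highest in Pontin cTG replicate 2 and changed sign without it. An SE under 0.2 was found for 25 of the 39 tested members.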
